A study of Mus musculus with 6 samples.

Results

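The 10 genes described here encode the enzymes that build and desaturate fatty acids, with 1 activator of that pathway: Acly, Acss2, Acaca, Fasn, Mid1ip1, Elovl6, Scd1, Scd2, Fads1 and Fads2. They were chosen by symbol from the 54446 entries of the deposited expression table, and each symbol belonged to 1 entry. All 10 passed the expression filter of 1 FPKM in at least 2 of the 6 samples, as did 12722 genes in all. FPKM are fragments scaled to gene length in kilobases and to the depth of the sample. RNA had been sequenced from macrophages grown out of the bone marrow of 6-week-old C57BL/6 mice. The samples form 3 groups of 2: macrophages given PBS, a salt buffer, as the control, macrophages given 5 µM KN93, and macrophages given 10 µM KN93. KN93 is a small molecule that inhibits calcium/calmodulin-dependent protein kinases. The labels do not give the length of treatment, and an inactive analogue of KN93 is not among the samples analysed here. The labels do not say whether samples of one group had separate cultures or animals behind them, so the p-values reflect sample-to-sample spread that may be technical.

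Fatty acid synthesis starts in the cytosol from acetyl-CoA, which ATP-citrate lyase (Acly) makes from citrate and acetyl-CoA synthetase (Acss2) makes from acetate. Acetyl-CoA carboxylase (Acaca) turns acetyl-CoA into malonyl-CoA, fatty acid synthase (Fasn) joins these units into palmitate, and the elongase Elovl6 lengthens palmitate to stearate. The stearoyl-CoA desaturases Scd1 and Scd2 make monounsaturated fatty acids, and Fads1 and Fads2 desaturate polyunsaturated ones. In macrophages the pathway is known to be under the sterol-regulated transcription factors of the SREBP family and under the liver X receptors (LXR), and its products enter membranes, lipid droplets and lipid mediators.

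The depth behind the values was read from the FPKM, whose low values were nearly all whole multiples of 1 fragment. The implied totals were 24170000 to 28390000 fragments per sample. The genes described here had from 150 fragments (Elovl6 in a 10 µM sample) to 7992 fragments (Acly in a PBS sample), so counting error was largest for Elovl6. Macrophage markers were present in every sample, with summed levels of 25015 to 25591 FPKM with PBS, 19955 to 20405 at 5 µM and 12018 to 13168 at 10 µM. Of the 15 markers 10 fell (66.7%) and 2 rose (13.3%) at 10 µM by the test described below. Of all genes tested 22% fell and 28.5% rose. Lyz2 was the largest part of the sum, at 15400 and 15052 FPKM with PBS and 5849 and 6568 at 10 µM. Cd68 went the other way, from 842 and 861 to 1396 and 1511 FPKM. Stromal markers summed to 1967 to 2016, 539 to 651 and 381 to 400.2 FPKM in the same order, and neutrophil markers to 114.6 to 114.8, 37.1 to 42.7 and 5.22 to 7.31. Of 10 stromal markers tested 8 fell (80%) and 0 rose at 10 µM, and all 5 neutrophil markers tested fell (100%). Col1a1 was the largest part of the stromal sum with PBS, at 831 and 781 FPKM. Dcn did not follow that sum, at 2.01 and 2.56 FPKM with PBS and 2.32 and 1.82 at 10 µM. The part of these cell types in the results below was not tested. Fewer cells of a type and less RNA of the marker genes per cell cannot be told apart in bulk samples. Adipocytes, which are rich in these enzymes, were represented by 10 markers of which 8 stayed under 1 FPKM in all samples. Pck1 was listed at 0 throughout, and Adipoq, the adiponectin gene, reached at most 0.0784 FPKM. The markers above 1 FPKM were Lpl and Adipor2. Lpl was 40.2 and 40.4 FPKM with PBS and 12.3 in each 10 µM sample, and Adipor2 was 15.3 to 17.4 over all samples. Dendritic cell markers other than Itgax and all 7 lymphocyte markers were under 1 FPKM in every sample.

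The 10 genes did not move as a block. At 5 µM, 3 rose against PBS (Acss2, Scd1 and Fasn) and 7 did not pass the test. At 10 µM, 4 rose (Acss2, Fasn, Scd1 and Mid1ip1) and 2 fell (Acly and Fads1). Between the doses, Acss2 and Mid1ip1 were higher and Acly and Fads1 lower at 10 µM. A gene was called at a limma adjusted p under 0.05, with adjustment over all genes tested. Of all genes tested, 30.5% were called at 5 µM (15.1% higher, 15.4% lower), 50.5% at 10 µM (28.5% higher, 22% lower) and 19.9% between the doses (11.4% higher, 8.5% lower). In either direction, 30% of the 10 genes were called at 5 µM, close to the background. The share was 60% at 10 µM and 40% between the doses. By direction, 30% were higher and 0% lower at 5 µM. At 10 µM these shares were 40% and 20%, and between the doses 20% and 20%. The median log2 difference of the 10 genes was 0.30 at 5 µM, where that of all genes tested was 0.01, and 0.05 at 10 µM, where that of all genes was also 0.05. These counts changed when single samples were left out. At 5 µM the count was 2 to 4. At 10 µM the count was 3 without the PBS replicate 2 and 3 without the 10 µM replicate 1, and between the doses it was 2 without either 5 µM sample and 2 without the 10 µM replicate 2. Log2 differences were taken after adding 1 FPKM, so for low genes such as Acss2 and Elovl6 they are smaller than the change in FPKM.

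**Figure D1:**
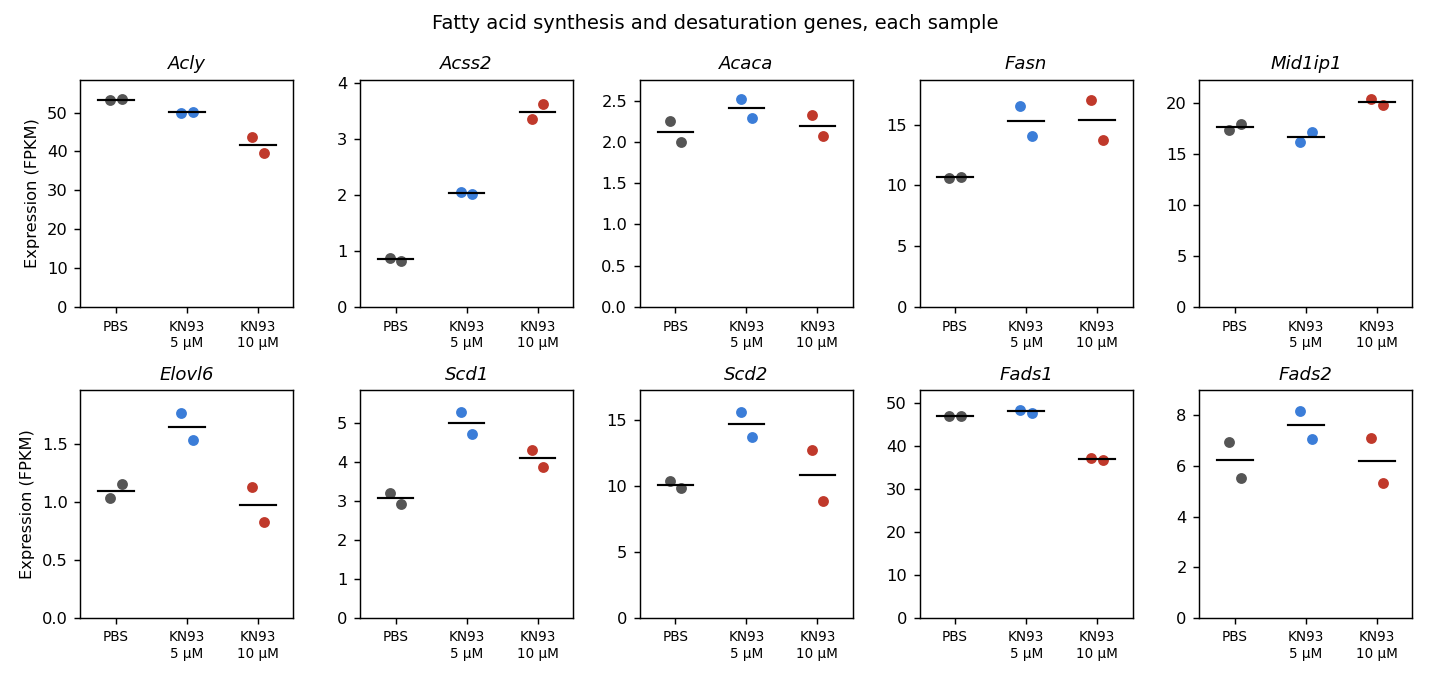
Expression in FPKM (y axis, from 0) of the 10 genes in each of the 6 samples by treatment (x axis). Points are samples and horizontal lines are group means of 2 samples. Acss2 steps up with each dose, Fasn is higher at both doses, and Acly and Fads1 have their lowest values at 10 µM. Group means of Scd1, Scd2, Elovl6, Fads1, Acaca and Fads2 are highest at 5 µM. For Acaca and Fads2 the samples of the 5 µM and 10 µM groups overlap.

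**Figure D2:**
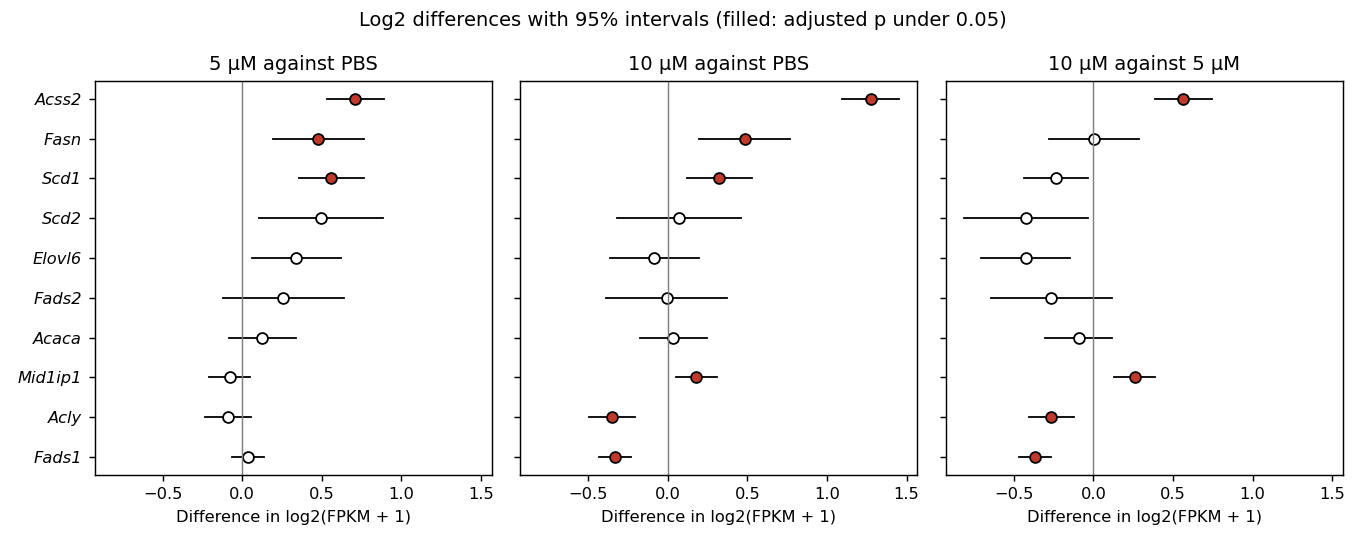
Difference in log2(FPKM + 1) (x axis) of the 10 genes for each dose against PBS and for the higher dose against the lower. Points are limma estimates over all 6 samples, lines are 95% intervals, and filled points passed at an adjusted p under 0.05: 3, 6 and 4 of the 10 genes.

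The pair of enzymes that supply cytosolic acetyl-CoA went opposite ways. Acss2, which uses acetate, was 0.874 and 0.830 FPKM with PBS, 2.05 and 2.01 with 5 µM and 3.35 and 3.62 with 10 µM. No sample of one group overlapped another group, and the level rose at each dose step. Both PBS values were under the filter of 1 FPKM, which Acss2 passed only through its KN93 samples. The group means were 0.852 ± 0.0311, 2.03 ± 0.0317 and 3.48 ± 0.185 FPKM (SD, n = 2 each), which makes the mean 2.39 times the PBS mean at 5 µM and 4.09 times at 10 µM. The log2 difference from PBS was 0.71 ± 0.07 (SE) at 5 µM and 1.28 ± 0.07 at 10 µM (limma adjusted p = 0.00198 and 0.000108), and from 5 µM to 10 µM it was 0.56 ± 0.07 (limma adjusted p = 0.0065). Each of these calls held under the 13 alternatives in which Acss2 was tested, the fit with no filter among them. Behind the values stood 239 fragments in each PBS sample and 824 and 1043 in the 10 µM samples.

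Acly, which makes acetyl-CoA from citrate and had the highest FPKM of the 10 genes, was 53.3 and 53.4 FPKM with PBS, 50.02 and 50.19 with 5 µM and 43.7 and 39.5 with 10 µM. Both 10 µM samples lay below all others. Acly fell at 10 µM, from 53.4 ± 0.0882 to 41.6 ± 2.99 FPKM (SD, n = 2 each; log2 difference -0.35 ± 0.06, limma adjusted p = 0.0044), a call that held under all 14 alternatives. At 5 µM the difference was -0.09, with a 95% interval of -0.23 to 0.05 (limma adjusted p = 0.299). Between the doses Acly fell by 0.26 ± 0.06 (limma adjusted p = 0.0303). That call was lost in 7 of 14 alternatives (range over them 0.00677 to 0.125), among them those without the PBS replicate 1 (0.0588), the PBS replicate 2 (0.0592), the 5 µM replicate 1 (0.114), the 5 µM replicate 2 (0.125) and the 10 µM replicate 2 (0.0722). The ratio of Acly to Acss2 FPKM, a quantity chosen after the values were seen, was 61.0 and 64.4 in the PBS samples, 24.3 and 24.98 with 5 µM and 13.0 and 10.9 with 10 µM.

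The promoters of Acss2 and Fasn, which rose at both doses, and of Acly, which fell, are shown as examples of members that moved in opposite directions. Each is the 250 bases before the RefSeq start site on GRCm38.p6, 5′ to 3′ on the strand of the gene. Capitals mark the CCAAT box (CCAAT, or ATTGG on the other strand) and the GC box (GGGCGG, or CCGCCC on the other strand). The windows are chr2:155517793-155518042 (plus strand) for Acss2, chr11:120824548-120824797 (minus strand) for Fasn and chr11:100528001-100528250 (minus strand) for Acly.
Acss2: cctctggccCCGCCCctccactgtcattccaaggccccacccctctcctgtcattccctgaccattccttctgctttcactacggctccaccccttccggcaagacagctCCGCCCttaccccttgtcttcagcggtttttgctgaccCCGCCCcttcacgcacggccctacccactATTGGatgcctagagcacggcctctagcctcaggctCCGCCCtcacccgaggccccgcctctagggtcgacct
Fasn: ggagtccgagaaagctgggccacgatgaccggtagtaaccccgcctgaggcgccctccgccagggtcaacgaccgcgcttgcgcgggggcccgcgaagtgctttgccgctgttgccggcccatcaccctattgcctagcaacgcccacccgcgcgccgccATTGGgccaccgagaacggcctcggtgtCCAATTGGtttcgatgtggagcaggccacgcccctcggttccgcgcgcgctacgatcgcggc
Acly: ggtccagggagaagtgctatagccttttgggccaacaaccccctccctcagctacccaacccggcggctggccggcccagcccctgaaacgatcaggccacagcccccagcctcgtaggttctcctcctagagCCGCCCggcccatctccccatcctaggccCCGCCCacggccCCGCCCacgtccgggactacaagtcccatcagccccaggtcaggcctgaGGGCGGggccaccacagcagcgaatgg
The Acss2 window held 1 CCAAT box and 4 GC boxes, the Fasn window 3 CCAAT boxes, with an overlap between the last 2, and the Acly window 4 GC boxes. Windows were found for 7 of the 10 genes, by the RefSeq start. Those of Acaca (chr11:84195188-84195437) and Mid1ip1 (chrX:10717115-10717364) lie inside the gene as GENCODE M21 annotates it, not at its outer start. That of Fads2 (chr19:10101504-10101753, minus strand) lies almost wholly inside its gene. Those of Acss2 and Elovl6 (chr3:129532136-129532385) run past the annotated start, so their ends lie inside the gene. For Acss2 the annotated start is at 155517948, and the CCAAT box and the last GC box of its window lie past it. Among these 7, a CCAAT box was found in 2 and a GC box in 4, while 33.8% and 32.7% of all 32851 windows of the same length held them. The SREBP element searched as TCACNCCAC on both strands, its shorter form TCACNCCA and the E-box CACGTG had no match in the 7 windows; of all windows 1.05%, 3.67% and 6.02% held them. A match or its absence describes these letters and windows and says nothing of binding.

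Of the carboxylation and synthase steps, Fasn rose and Acaca did not pass. Acaca, which encodes the cytosolic acetyl-CoA carboxylase, was 2.25 and 1.99 FPKM with PBS, 2.52 and 2.29 with 5 µM and 2.32 and 2.07 with 10 µM. Both 5 µM samples were above both PBS samples. Of the 10 µM samples, one lay within the PBS range and the other just above it. Its log2 difference was 0.13 at 5 µM (95% interval -0.08 to 0.34, limma adjusted p = 0.315) and 0.03 at 10 µM (-0.18 to 0.24, limma adjusted p = 0.771). Acacb, the gene of the mitochondrial isoform, stayed below the filter at 0.177 to 0.322 FPKM, from 45 to 78 fragments.

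Fasn, whose product makes palmitate, was 10.6 and 10.7 FPKM with PBS, 16.5 and 14.0 with 5 µM and 17.0 and 13.7 with 10 µM. Every treated sample was above both PBS samples, and the treated groups overlapped each other. The means were 10.6 ± 0.0438, 15.3 ± 1.76 and 15.4 ± 2.30 FPKM (SD, n = 2 each), 1.43 and 1.44 times the PBS mean. The log2 difference was 0.48 ± 0.12 at either dose (limma adjusted p = 0.0281 at 5 µM and 0.0169 at 10 µM). The 5 µM difference no longer passed when the fit lacked the PBS replicate 1 (limma adjusted p = 0.111), the PBS replicate 2 (0.102) or the 5 µM replicate 1 (0.121), and with no expression filter (0.0899; range over 14 alternatives 0.00739 to 0.121). The 10 µM difference no longer passed when it lacked the PBS replicate 1 (limma adjusted p = 0.0681), the PBS replicate 2 (0.065) or the 10 µM replicate 1 (0.0549), and with no filter (0.0573; range 0.00686 to 0.0681). Between the doses Fasn differed by 0.00, with a 95% interval of -0.28 to 0.29.

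Mid1ip1, whose product promotes the assembly of acetyl-CoA carboxylase into its active polymer, was 17.4 and 18.0 FPKM with PBS, 16.1 and 17.2 with 5 µM and 20.4 and 19.9 with 10 µM. Both 10 µM samples were above the rest. Mid1ip1 rose at 10 µM against PBS by a log2 difference of 0.18 ± 0.05 (limma adjusted p = 0.032) and against 5 µM by 0.26 ± 0.05 (limma adjusted p = 0.0232). The call against PBS was lost in 8 of 14 alternatives (range over them 0.0253 to 0.149). These were the fits without the PBS replicate 1 (0.149), the PBS replicate 2 (0.0815), the 10 µM replicate 1 (0.106) or the 10 µM replicate 2 (0.0658), with no filter (0.0542), with median-of-ratios scaling (0.111), with the replicate block (0.0526) and with voom on recovered fragments (0.146). The call against 5 µM was lost without the 5 µM replicate 1 (0.11), the 5 µM replicate 2 (0.0628), the 10 µM replicate 1 (0.0826) or the 10 µM replicate 2 (0.0622), and with no filter (0.0526; range 0.0146 to 0.11). At 5 µM against PBS the difference was -0.08 (95% interval -0.21 to 0.05, limma adjusted p = 0.297).

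Scd1 rose at 5 µM and had a smaller difference at 10 µM. Scd1, the best known stearoyl-CoA desaturase, was 3.22 and 2.93 FPKM with PBS, 5.30 and 4.73 with 5 µM and 4.33 and 3.88 with 10 µM. The 3 groups did not overlap. The means were 3.08 ± 0.202, 5.01 ± 0.402 and 4.10 ± 0.320 FPKM (SD, n = 2 each). Against PBS the log2 difference was 0.56 ± 0.08 at 5 µM (limma adjusted p = 0.00603), a call that held under all 13 alternatives in which it was tested. At 10 µM it was 0.32 ± 0.08 (limma adjusted p = 0.0206), and that call did not hold when the PBS replicate 2 (0.102) or the 10 µM replicate 1 (0.0848) was left out, or with no filter (0.0605; range 0.0114 to 0.102). From 5 µM to 10 µM Scd1 differed by -0.24 (95% interval -0.44 to -0.03, limma adjusted p = 0.0975), and this passed with voom on recovered fragments (0.0358; range 0.0358 to 0.331).

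Scd2, the paralog 87.6 kb from Scd1 on chromosome 19, was 10.3 and 9.82 FPKM with PBS, 15.6 and 13.7 with 5 µM and 12.7 and 8.85 with 10 µM. The 5 µM samples were the highest, while the 10 µM samples lay on both sides of the PBS samples. At 5 µM the mean was 1.45 times the PBS mean, and the log2 difference was 0.50 ± 0.16 (limma adjusted p = 0.0629), which did not pass. It passed in 6 of 14 alternatives (range over them 0.013 to 0.229): with a filter of 5 FPKM (0.0453), with only the PBS and 5 µM samples (0.014), with the replicate block (0.0292), without the 10 µM replicate 1 (0.0131), without the 10 µM replicate 2 (0.013) and with voom (0.0232). At 10 µM the difference from PBS was 0.07 (95% interval -0.32 to 0.46, limma adjusted p = 0.742). From 5 µM to 10 µM it was -0.43 (-0.82 to -0.04, limma adjusted p = 0.113), and it passed without the 10 µM replicate 1 (0.0242) and with voom (0.033; range 0.0242 to 0.336). The other paralogs were close to absent: Scd3 had at most 1 fragment and Scd4 at most 5 in a sample. The paralogs are similar in sequence, so fragments can be shared between them.

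Elovl6, which lengthens palmitate before desaturation, was 1.03 and 1.15 FPKM with PBS, 1.76 and 1.53 with 5 µM and 1.13 and 0.822 with 10 µM. The 5 µM samples were again above all others, and the 10 µM samples overlapped those with PBS. The 5 µM mean was 1.51 times the PBS mean, with a log2 difference of 0.34 ± 0.11 (limma adjusted p = 0.0719). From 5 µM to 10 µM the difference was -0.43 ± 0.11 (limma adjusted p = 0.0505). Both passed with voom on recovered fragments, with log2 differences of 0.57 (adjusted p = 0.0232, range over 13 alternatives 0.0232 to 0.268) and -0.83 (adjusted p = 0.00805, range 0.00805 to 0.188), a scale with no pseudocount of 1 FPKM. The difference between the doses also passed with median-of-ratios scaling (0.0438) and without an intensity trend (0.0389). At 10 µM against PBS the difference was -0.09 (95% interval -0.37 to 0.19, limma adjusted p = 0.559).

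Whether the step from PBS to 5 µM differed from the step from 5 µM to 10 µM was tested as a contrast of its own, in which 5.36% of all genes were called (2.88% higher, 2.48% lower). Of the 10 genes, 2 passed, Scd1 (-0.80 ± 0.14, limma adjusted p = 0.0415) and Fads1 (-0.40 ± 0.07, limma adjusted p = 0.0403). In both the second step was below the first. Neither passed once any 1 of the 6 samples was left out, where the adjusted p of Scd1 ran from 0.0676 to 0.177 and that of Fads1 from 0.0631 to 0.219; over all alternatives the ranges were 0.0103 to 0.177 and 0.0187 to 0.219. The difference was -0.92 for Scd2 (limma adjusted p = 0.111), -0.76 for Elovl6 (0.0835) and -0.47 for Fasn (0.207). With voom 4 genes passed, Scd1, Fads1, Scd2 and Elovl6.

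Of the desaturases of polyunsaturated fatty acids, Fads1 fell at 10 µM and Fads2 did not pass in any comparison. Fads1 was 46.9 and 46.8 FPKM with PBS, 48.4 and 47.7 with 5 µM and 37.2 and 36.7 with 10 µM. The 10 µM samples were the lowest by a wide margin against a spread of under 1 FPKM within each group. Fads1 fell from 46.8 ± 0.0437 to 37.0 ± 0.346 FPKM (SD, n = 2 each; log2 difference -0.33 ± 0.04, limma adjusted p = 0.00147) and against 5 µM by 0.37 ± 0.04 (limma adjusted p = 0.00435). Both calls held under all 14 alternatives. At 5 µM against PBS the difference was 0.04 (95% interval -0.07 to 0.14, limma adjusted p = 0.556).

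Fads2 was 6.95 and 5.52 FPKM with PBS, 8.18 and 7.06 with 5 µM and 7.11 and 5.33 with 10 µM. Its samples spread widely within each group, and the 10 µM samples enclosed the PBS samples. Both 5 µM samples were above both PBS samples. The log2 difference was 0.26 at 5 µM (95% interval -0.12 to 0.64, limma adjusted p = 0.262) and -0.01 at 10 µM (-0.39 to 0.37, limma adjusted p = 0.97). At 5 µM it passed only with the replicate block (0.0468; range over 14 alternatives 0.0468 to 0.693). Fads3, the third gene of this cluster on chromosome 19, was 12.1 to 14.1 FPKM over the 6 samples and did not pass at 5 µM (-0.10, limma adjusted p = 0.36) or at 10 µM (-0.05, limma adjusted p = 0.568).

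By FPKM with PBS the order was Acly (53.4), Fads1 (46.8), Mid1ip1 (17.7), Fasn (10.6), Scd2 (10.1), Fads2 (6.24), Scd1 (3.08), Acaca (2.12), Elovl6 (1.09) and Acss2 (0.852). No neighbours in this order overlapped with PBS. At 5 µM Mid1ip1 overlapped Fasn, and Fasn overlapped Scd2. At 10 µM Acss2 stood above Acaca and Elovl6, at 3.35 to 3.62 FPKM against 2.07 to 2.32 and 0.822 to 1.13. The order depends on gene length. For Acss2 the FPKM corresponded to the summed length of all annotated exons, 10163 bases, while its longest coding transcript has 2931. Per kilobase of the longest coding transcript the PBS level would be 2.95 FPKM for Acss2, 3.81 for Acaca, 3.11 for Scd1, 63.7 for Acly and 65.1 for Fads1, so Acaca would pass Scd1, Acss2 would stand above Elovl6 (1.18), and Acly and Fads1 could not be ordered. The exon lengths used for Scd1 and Fads1 did not give whole fragments and may not be those behind the deposited values. The summed FPKM of the 10 genes ranged from 151 to 153 in the PBS samples, from 160.4 to 166 at 5 µM and from 134 to 149 at 10 µM, and most of it was Acly and Fads1.

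The genes also differed in how closely the 2 samples of a group matched. The median gap between the samples of a group over all genes tested came to 0.07 in the PBS group, 0.08 in the 5 µM group and 0.10 in the 10 µM group, in log2(FPKM + 1). Among the 10 µM samples the gap was 0.48 for Scd2, larger than that of 96.2% of genes tested, 0.36 for Fads2 (93.5%) and 0.29 for Fasn (90.2%). It was 0.02 for Fads1. The 10 µM replicate 1 was the higher sample for 9 of the 10 genes, the exception being Acss2. In the other groups replicate 1 was the higher sample for 8 of the 10 genes at 5 µM and for 6 with PBS. Leaving out the 10 µM replicate 1 gave log2 differences from PBS of -0.17 for Scd2 and 0.34 for Fasn.

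Among all genes tested, those whose centred log2 values lay closest to Acss2 over the 6 samples were Psmd8, a proteasome subunit gene, Akip1, Grina and Gm21399, with root mean square differences of 0.05 to 0.06. Psmd8, for example, was 68.0 and 68.9 FPKM with PBS, 121 and 112 with 5 µM and 159 and 165 with 10 µM. The distance was taken on log2(FPKM + 1), which shrinks the differences of low genes. A small distance therefore does not mean a like ratio of FPKM. The 10 µM mean of Acss2 was 4.09 times its PBS mean, a larger ratio than that of Psmd8. Closest to Scd1 were Prmt7, an arginine methyltransferase gene, Gm22847, Oxld1 and Gm16206 (0.05 to 0.06). Scd2 had no such close neighbour, and its nearest were Gm44429, Acat2, Elovl6 and 1700003F12Rik (0.10 to 0.12). Acat2, which encodes a cytosolic thiolase that acts early in cholesterol synthesis, was 4.79 and 4.86 FPKM with PBS, 6.36 and 6.14 with 5 µM and 5.24 and 4.25 with 10 µM.

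Of the regulators named here, Srebf1, Srebf2 and Insig1 fell and Mlx and Pparg rose at 10 µM against PBS. The LXR genes Nr1h2 and Nr1h3 and the SREBP escort gene Scap did not pass there. Srebf1, which encodes SREBP-1, fell from 18.8 and 18.7 FPKM with PBS to 14.5 and 13.4 at 5 µM and 13.6 and 13.2 at 10 µM, with log2 differences of -0.41 ± 0.05 and -0.46 ± 0.05 (limma adjusted p = 0.00449 and 0.00125). Both calls held under all 14 alternatives. Srebf2, which encodes the cholesterol-directed SREBP-2, fell at 10 µM from 32.1 and 31.3 to 20.1 and 19.1 FPKM (-0.67 ± 0.05, limma adjusted p = 0.00021), and its 5 µM samples lay between, at 26.0 and 25.4. Insig1, an SREBP target whose product retains SREBP in the endoplasmic reticulum, fell at 10 µM from 40.4 and 42.6 to 27.2 and 25.4 FPKM (-0.64 ± 0.06, limma adjusted p = 0.000439). Mlx, the partner of the carbohydrate-responsive factor ChREBP, rose at 10 µM from 11.7 and 12.1 to 20.2 and 19.02 FPKM (0.67 ± 0.06, limma adjusted p = 0.000457). Mlxipl, the ChREBP gene itself, was at most 0.0456 FPKM. Pparg, a lipid-sensing nuclear receptor gene, rose from 2.68 and 2.9997 FPKM to 6.43 and 6.26 at 5 µM and 6.64 and 7.17 at 10 µM (0.94 ± 0.07 and 1.04 ± 0.07, limma adjusted p = 0.000752 and 0.00016).

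Scap, the escort of SREBP, was 11.7 and 11.6 FPKM with PBS, 13.12 and 13.14 with 5 µM and 12.03 and 11.8 with 10 µM. The 5 µM samples were above all others, and Scap rose at 5 µM by a log2 difference of 0.16 ± 0.04 (limma adjusted p = 0.0435). That call was lost in 12 of 14 alternatives (range 0.0321 to 0.171), among them each fit lacking 1 sample: the PBS replicate 1 (0.157) or 2 (0.171), the 5 µM replicate 1 (0.156) or 2 (0.158), and the 10 µM replicate 1 (0.0516) or 2 (0.0516). At 10 µM Scap did not pass against PBS (limma adjusted p = 0.648). The LXR gene Nr1h3 was 23.6 and 18.9 FPKM with PBS, 25.6 and 26.6 with 5 µM and 19.1 and 16.4 with 10 µM, and neither dose passed against PBS (limma adjusted p = 0.119 and 0.138). The other LXR gene, Nr1h2, did not pass either (limma adjusted p = 0.508 and 0.0663). Without the 10 µM replicate 1 Nr1h2 passed at 10 µM (0.0136, range over 14 alternatives 0.0136 to 0.196), and Nr1h3 did without the PBS replicate 2 (0.0371) and with voom on recovered fragments (0.042; range 0.0371 to 0.533). Of the 21 regulators tested of 25 listed, 4 rose and 5 fell at 5 µM, and 3 rose and 7 fell at 10 µM. These are 19.05% and 23.8% of the regulators at 5 µM, where 15.1% of all genes tested were higher and 15.4% lower, and 14.3% and 33.3% at 10 µM, where the shares of all genes were 28.5% and 22%.

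**Figure D3:**
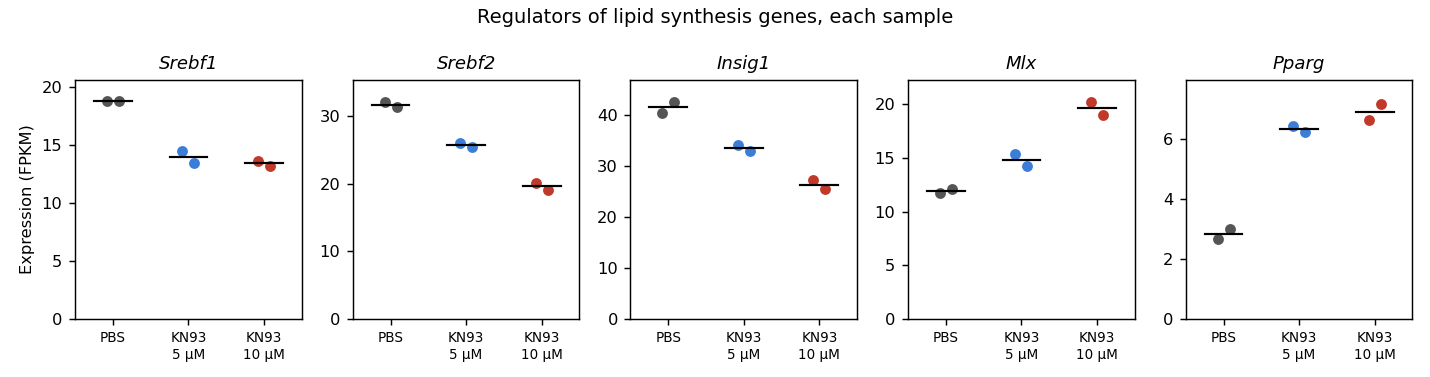
Expression in FPKM (y axis, from 0) of 5 regulator genes in each of the 6 samples by treatment (x axis). Points are samples and horizontal lines are group means of 2 samples. Srebf1, Srebf2 and Insig1 are highest with PBS, at 18.7 to 18.8, 31.3 to 32.1 and 40.4 to 42.6 FPKM, while Mlx and Pparg are lowest there.

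The neighbouring steps of lipid metabolism showed rises and falls in each list. Of all genes tested, 28.5% were higher and 22% lower at 10 µM, and 15.1% and 15.4% at 5 µM. Of 16 tested genes of carbon, acyl-CoA and NADPH supply, 5 rose and 6 fell at 10 µM, and 5 rose and 3 fell at 5 µM. Acsl1, a long-chain acyl-CoA synthetase gene, rose from 7.19 and 5.98 FPKM with PBS to 12.4 and 13.0 at 5 µM and 28.2 and 26.2 at 10 µM. Idh1, a cytosolic source of NADPH, fell at 10 µM from 86.4 and 106.1 to 51.5 and 60.01 FPKM, and Acsl3, another acyl-CoA synthetase gene, from 2.84 and 2.64 to 1.68 and 1.66 (log2 differences 1.90, -0.77 and -0.49; limma adjusted p = 5.88e-05, 0.003 and 0.00257). Pdhb, a pyruvate dehydrogenase subunit gene, rose at 10 µM (0.51, limma adjusted p = 0.00141). Of 19 tested genes of other elongation and desaturation enzymes, 6 rose and 4 fell at 10 µM, and 7 rose and 3 fell at 5 µM. Cyb5r1, a cytochrome b5 reductase gene and the one with the smallest p in this list at 10 µM, rose from 19.004 and 18.95 FPKM with PBS to 28.0 and 28.8 with 5 µM and 52.3 and 53.1 with 10 µM. The 10 µM mean was 2.78 times the PBS mean (log2 difference 1.43 ± 0.04, limma adjusted p = 1.99e-05). Degs1, the ceramide-forming desaturase gene, rose from 42.1 and 46.6 to 73.7 and 76.5 FPKM at 10 µM, and Tecr, which encodes the last reductase of the elongation cycle, fell from 50.4 and 48.5 to 35.3 and 38.9. Mecr, a mitochondrial enoyl reductase gene, rose by 0.54 (limma adjusted p = 0.00171). Of 22 tested glycerolipid and lipid droplet genes, 9 rose and 6 fell at 10 µM, and 6 rose and 6 fell at 5 µM. Mgll, the monoacylglycerol lipase gene, had the smallest p of this list: it rose from 1.22 and 1.39 FPKM with PBS to 9.88 and 9.52 with 5 µM and 20.2 and 22.3 with 10 µM. The 10 µM mean was 16.3 times the PBS mean (log2 difference 3.27 ± 0.07, limma adjusted p = 1.25e-05). Plin3, a lipid droplet coat gene, rose from 20.49 and 21.1 FPKM with PBS to 39.1 and 41.8 at 10 µM, and Lpin2, a phosphatidate phosphatase gene, fell from 15.7 and 16.0 to 9.55 and 9.01. Lpcat2, a lysophospholipid acyltransferase gene, fell by 1.12 on the log2 scale.

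Genes of fatty acid oxidation, the opposite process, also split. Of 24 tested, 6 rose and 9 fell at 10 µM, and 5 rose and 1 fell at 5 µM. Acadl, a mitochondrial acyl-CoA dehydrogenase gene, rose from 24.9 and 26.9 FPKM with PBS to 43.2 and 46.5 at 10 µM, and Hsd17b4, a peroxisomal enzyme gene, fell from 42.5 and 41.6 to 25.7 and 26.8. Echs1, an enoyl-CoA hydratase gene, rose by 0.40 and Hadh, a hydroxyacyl-CoA dehydrogenase gene, fell by 0.35 on the log2 scale. At 10 µM the background was 28.5% of all genes tested higher and 22% lower, and at 5 µM it was 15.1% and 15.4%.

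Cholesterol synthesis genes, and LXR targets outside the 10 genes, are described together because LXR and SREBP factors are known to act on them as well. Of 21 tested genes of cholesterol synthesis and uptake, 16 fell and 1 rose at 10 µM, with a median log2 difference of -0.37. These are 76.2% and 4.76%, where 22% of all genes tested were lower and 28.5% higher. At 5 µM 5 fell and 2 rose, or 23.8% and 9.52%, where 15.4% of all genes were lower and 15.1% higher. Stard4, which encodes a sterol transfer protein, fell from 6.40 and 6.49 FPKM with PBS to 2.70 and 2.11 at 10 µM. The synthesis enzyme genes Cyp51, Dhcr7 and Hsd17b7 had log2 differences of -0.77, -0.47 and -0.68 and all passed. Of the 17 LXR targets listed, 7 are among the 10 genes described here. Of the other 10, 7 fell at 10 µM (70%, against 22% of all genes tested) and 3 did not pass, with a median of -0.56. At 5 µM 5 fell and 1 rose, or 50% and 10%, where 15.4% of all genes were lower and 15.1% higher. Srebf1, Nr1h3 and Lpcat3 are among these 10 and are also counted in the regulator or glycerolipid lists. Abca1, the cholesterol exporter gene, fell from 69.4 and 75.4 FPKM with PBS to 10.8 and 9.79 at 10 µM, and Lpcat3, which encodes a phospholipid acyltransferase, fell from 14.1 and 14.6 to 8.38 and 9.01. Arl4c, a small GTPase gene, and Pltp, the phospholipid transfer protein gene, fell by 1.74 and 0.85 on the log2 scale. The median of the 10 fatty acid genes at 10 µM against PBS was 0.05. Whether these lists differ from the 10 genes was not tested.

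**Figure D4:**
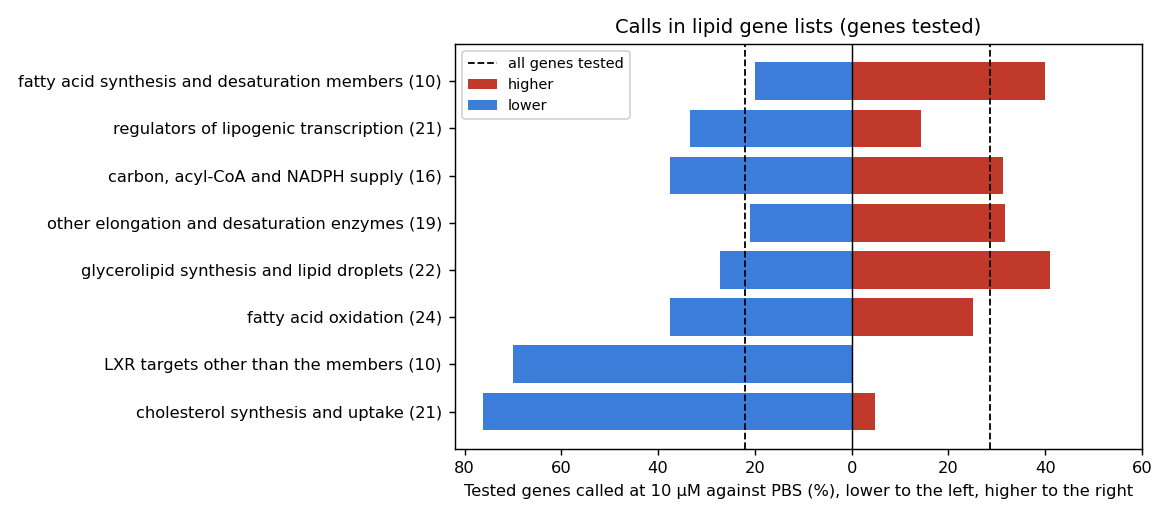
Percent of the tested genes of 8 lipid gene lists (y axis, number tested in brackets) that were called at 10 µM against PBS (x axis, limma adjusted p under 0.05), lower to the left and higher to the right. Dashed lines are the shares of all genes tested, 22% lower and 28.5% higher. Cholesterol synthesis (16 of 21) and the LXR targets outside the 10 genes (7 of 10) reach furthest to the left. These LXR targets share Srebf1, Nr1h3 and Lpcat3 with other lists shown.

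On GRCm38, in the GENCODE M21 annotation, Acly lies on chromosome 11 at 100476353 to 100528000, Fasn on chromosome 11 at 120805846 to 120824547 and Acaca on chromosome 11 at 84129672 to 84401651. Acss2 lies on chromosome 2 at 155517948 to 155585724, Elovl6 on chromosome 3 at 129532355 to 129638495 and Mid1ip1 on chromosome X at 10715013 to 10719690. On chromosome 19 lie Scd2 at 44293674 to 44306864, Scd1 at 44394455 to 44407879, Fads2 at 10062765 to 10101746 and Fads1 at 10182888 to 10196877. All 10 are annotated as protein-coding genes.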

How the data were processed

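The authors deposited 1 table of FPKM, with a row per gene and a column per sample, and the table's name gives the unit. HISAT2, an aligner, and the build GRCm38 are named per the submitters' processing notes; its version, the counting tool, the annotation and the use of strand are not given by the labels or headers, so fragments of overlapping genes cannot be told apart. All column names begin with DXM, a prefix that the labels do not explain. Columns were matched to samples by the title that follows it, and groups were taken from the descriptions. Replicate numbers follow the order of the samples, and the labels give no pairing.

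The 10 genes, the gene lists and the tests were chosen with earlier results of these data known. The rule for named genes took all 10, a fixed set of regulators and paralogs, up to 4 genes per list with the smallest p at 10 µM against PBS, and for 3 of the 10 the 4 nearest genes. Genes reaching 1 FPKM in 2 or more of the 6 samples were fitted as log2(FPKM + 1) with limma 3.58.1 in R 4.3.3 (3 groups in 1 fit, intensity trend, two-sided tests, Benjamini-Hochberg adjustment over 12722 genes). The fit had been tested on simulated data, in which far fewer genes changed than were called here. Fragments were recovered from the FPKM with exon lengths of GENCODE M21, which matched 54409 entries; 98.8% to 99.0% of values of up to 20 fragments were whole within 0.1. For Scd1, Scd2, Fads1 and Fads2 the values were not whole within 0.1 fragment, so their fragments are approximate; the other 6 were. Promoter sequences are from RefSeq. Alternatives were another pseudocount (0.1 FPKM), no filter, a filter of 5 FPKM, median-of-ratios scaling, no trend, only the groups compared, a replicate block, each sample left out, and voom in limma on recovered fragments.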

Additional observations from a re-analysis of the deposited data

How the results depend on the processing

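With groups of 2, each fit that leaves out a sample keeps a group of 1, which is assumed to vary like the others. Depth was lowest for Elovl6 and Acss2, with as few as 150 and 239 fragments in a sample; its part in their values was not tested. Of the 10 genes, the number called at 5 µM against PBS was 3, or 5 with the replicate block and 5 with voom on recovered fragments; without single samples it was 2 to 4. At 10 µM against PBS it was 6, or 3 with no expression filter, and 3 to 6 without single samples. Between the doses it was 4, or 2 with no filter and 7 with voom, and 2 to 4 without single samples. The difference between the dose steps was called for 2 genes. It was called for 4 with voom and for 1 with a filter of 5 FPKM, without an intensity trend or with the replicate block. With no filter limma called 0 (5 at an unadjusted p under 0.05), and without any single sample limma called 0 (2 to 8 unadjusted). A filter of 5 FPKM left 6 of the 10 genes to test, and no filter raised the number of genes tested to 30856.

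Of the single-gene values under the alternatives, 459 kept their direction and side of the threshold, 47 lost the call, 16 gained it and 12 changed sign, none of which were called. Fasn between the doses became -0.038 with median-of-ratios scaling and -0.041 with voom, and ran from -0.14 (10 µM replicate 1 left out) to 0.15 over the fits lacking 1 sample, with -0.11 when the 5 µM replicate 2 was left out. Acaca at 10 µM against PBS became -0.011 with scaling and -0.018 with voom, and ran from -0.026 (PBS replicate 2 left out) to 0.093 in such fits. At 10 µM against PBS, Scd2 ran from -0.17 (10 µM replicate 1 left out) to 0.31, Elovl6 from -0.20 to 0.025 (10 µM replicate 2 left out) and Fads2 from -0.19 to 0.17 (10 µM replicate 2 left out). The cause was not tested. The replicate numbers come from the order of the samples. Deviations of same-numbered samples correlated at 0.04, 0.01 and -0.06 across genes, so the block is a check and not a pairing. With it, the genes called over all tests fell from 3881 to 3409 at 5 µM, from 6427 to 6023 at 10 µM and from 2536 to 2079 between the doses.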
